A study of Homo sapiens with 4 samples.

Results

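The HOX cluster genes are the homeobox genes that lie side by side in the HOXA, HOXB, HOXC and HOXD clusters. They were taken as the rows of the count table whose gene identifier maps to a protein-coding GENCODE symbol made of HOXA, HOXB, HOXC or HOXD and a number, which leaves out their antisense genes, and 39 of the 61544 genes in the table met this rule. HOXA held 11 of them, HOXB 10, HOXC 9 and HOXD 9. The series profiled bulk RNA of HT29 and HCT116 cells, both established human colorectal cancer lines, after exposure to lipopolysaccharide (LPS, 1 ug/mL for 24 h) and without it (control), to model inflammation of the gut epithelium in lines that differ in their basal glucocorticoid receptor. There was 1 library each of HT29 LPS, HT29 control, HCT116 LPS and HCT116 control cells, 4 in all. No library was repeated, so each line stands for itself and each LPS effect within a line rests on 1 library against 1.

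HOX genes encode transcription factors that bind DNA through a homeodomain and give cells their position along the body axis. The genes of a cluster are expressed in the order in which they lie, those of low paralog number towards the head and those of high number towards the tail, and genes with the same number in different clusters descend from a common ancestor. The colon keeps expressing many of them in the adult, with polycomb complexes holding silent clusters off, trithorax complexes keeping active ones on, and retinoic acid and CDX factors acting on the clusters in the embryo. Below, genes of groups 1 to 3 are called anterior, 4 to 8 central and 9 to 13 posterior.

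The libraries held between 19105058 and 21268959 counts assigned to genes. KRT8 and EPCAM, which mark epithelium, were high in both lines, but other markers of differentiated gut epithelium were not. VIL1 had 3004 and 2637 counts in HT29 LPS and control cells and 0 and 4 in HCT116 LPS and control cells, LGALS4 had 8299 and 7005 against 10 and 0, and KRT20 was at 0 in all 4 libraries. Summed counts of 5 leukocyte markers were 149 and 151 in HT29 cells against 37 and 56 in HCT116 cells, and those of 6 fibroblast markers were 74 and 92 against 2009 and 2231, nearly all from COL1A1, with COL1A2 and PDGFRA at 0. The part of these markers in the HOX differences was not tested.

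All 39 genes hold their homeobox of 180 bases, the stretch that encodes the homeodomain, in a single exon. Because HOXB9 led the HOX genes of HT29 cells, its homeobox and those of its paralogs HOXC9 and HOXD9 are printed here from the GENCODE 44 transcripts on hg38, in lower case, with capitals at each base that differs from HOXB9. The homeobox of HOXB9 lies at chr17:48622921-48623100 on the minus strand, and that of HOXC9 lies at chr12:54002465-54002644 and that of HOXD9 at chr2:176123969-176124148, both on the plus strand.
HOXB9: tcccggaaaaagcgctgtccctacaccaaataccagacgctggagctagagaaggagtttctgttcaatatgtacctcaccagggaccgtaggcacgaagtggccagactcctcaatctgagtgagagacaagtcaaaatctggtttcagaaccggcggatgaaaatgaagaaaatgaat
HOXC9: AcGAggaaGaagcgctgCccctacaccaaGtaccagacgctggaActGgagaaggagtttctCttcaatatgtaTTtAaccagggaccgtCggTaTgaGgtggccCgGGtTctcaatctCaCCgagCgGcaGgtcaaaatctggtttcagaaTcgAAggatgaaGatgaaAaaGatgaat
HOXD9: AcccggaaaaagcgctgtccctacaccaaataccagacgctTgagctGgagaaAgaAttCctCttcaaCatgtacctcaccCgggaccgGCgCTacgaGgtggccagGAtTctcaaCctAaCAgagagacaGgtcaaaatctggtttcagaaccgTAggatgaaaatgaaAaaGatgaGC

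HOXC9 differed from HOXB9 at 32 of these bases and HOXD9 at 28. Over all 42 pairs of the same paralog group, the homeoboxes shared between 69.4% and 90.6% of bases, with a median of 81.7%. Over the 172 pairs of the same cluster the range was 47.8% to 91.1% and the median 61.4%, and the other 527 pairs shared between 47.8% and 85.6%. Among the 741 pairs of canonical transcripts, 1 per HOX gene, the longest run shared exactly was 62 bases, in HOXB3 and HOXD3. Other transcripts of neighbouring HOX genes share exons by position, for example 18.2% of the exon bases of HOXD10 with HOXD11. HOXD3 had 0 counts in both HT29 libraries, where HOXB3 had 2207 and 1834.

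After scaling by TMM, the summed HOX counts of HT29 cells were 2.02-fold those of HCT116 cells, and nearly all of them came from HOXA and HOXB. The 39 genes together took 21378 counts in HT29 LPS and 19431 in HT29 control cells, and 11056 in HCT116 LPS and 12050 in HCT116 control cells. As shares of the library these were 0.103% and 0.102% in HT29 LPS and control cells, against 0.0558% and 0.0567% in HCT116 LPS and control cells. The ratio of the scaled sums, HT29 over HCT116, was the same to 3 digits in LPS and in control cells. In bulk RNA a smaller number of expressing cells and less RNA in each cell cannot be told apart.

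HOXB gave most HOX counts in each library, with 65.6% and 64.7% in HT29 LPS and control cells against 55.5% and 53.9% in HCT116 LPS and control cells. HOXA gave 29.7% and 30.6% in HT29 cells against 36.2% and 37.5% in HCT116 cells. HOXC gave 4.63% and 4.68% in HT29 cells against 6.76% and 7.03% in HCT116 cells. HOXD was close to silent in HT29, where all 9 of its genes together had 2 counts in LPS and 10 in control cells, against 172 and 198 in HCT116 LPS and control cells.

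**Figure D1:**
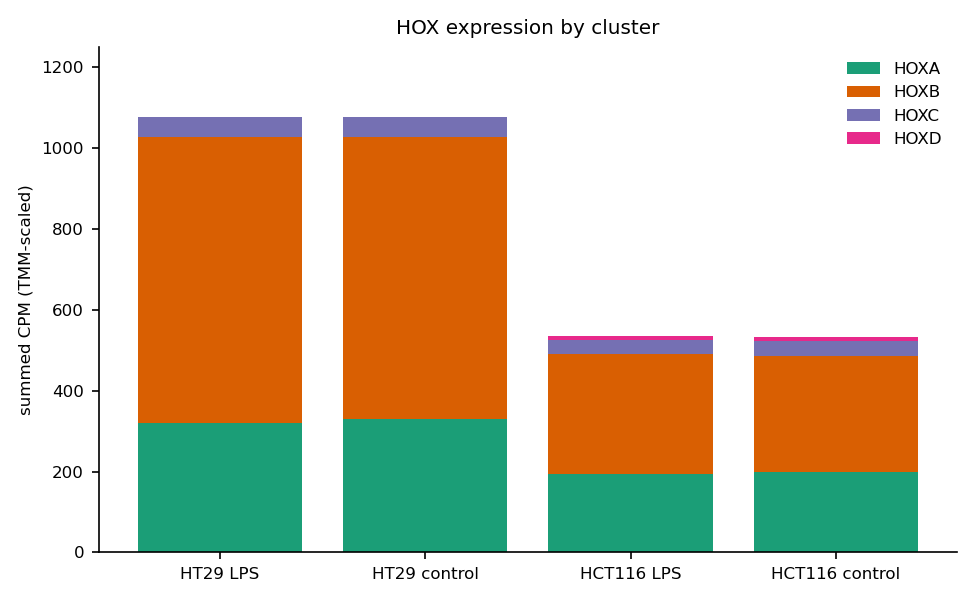
Summed expression of the genes of each HOX cluster in the 4 libraries, in CPM (counts scaled to library size by TMM), with 1 stacked bar per library. HT29 bars reach 1077 CPM (LPS) and 1078 CPM (control) and HCT116 bars 534 CPM (LPS) and 533 CPM (control), and a HOXD segment can be seen only in HCT116 cells.

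The log2 ratio of summed counts, HT29 over HCT116, was 0.73 in LPS and 0.72 in control cells for HOXA, 1.25 and 1.28 for HOXB, and 0.47 and 0.43 for HOXC. The counting intervals were narrow for HOXB, at 1.21 to 1.30 in LPS and 1.24 to 1.32 in control cells (95% Clopper-Pearson, which cover counting error only, here and below). For HOXD the ratio was -6.37 in LPS cells (-9.42 to -4.49) and -3.98 in control cells (-5.06 to -3.07). HOXD thus went against the other clusters, being higher in HCT116. When HOX genes that share exon bases with another gene were left out, only HOXA2 and HOXA5 remained in HOXA, with a ratio of 1.53 in LPS and 1.69 in control cells. The HOXB ratio was then 1.10 and 1.15, the HOXC ratio 1.39 and 1.16, and the HOXD ratio -4.64 and -1.74. These sums rest on part of each cluster and do not stand for the whole of it.

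Levels of different genes were compared as CPM per kb of exon. HOXA9 shares 27% and HOXB6 33.0% of exon bases with other genes, while HOXB7, HOXB8 and HOXB9 share none. How reads over shared bases were counted is not stated, so ranks of these genes could shift. HOXB9 was the HOX gene of highest level in HT29 cells, with 93.99 and 94.95 CPM per kb in LPS and control cells against 12.5 and 12.7 in HCT116 LPS and control cells. It was followed in HT29 by HOXB6 (50.5 and 44.3), HOXB7 (38.5 and 45.3), HOXB5 (31.9 and 31.0) and HOXB8 (29.1 and 31.1). Among these, the ranges of HOXB6 and HOXB7 overlapped, as did those of HOXB5 and HOXB8. HOXA9 was the gene of highest mean level in HCT116 cells, with 33.5 and 37.3 CPM per kb in LPS and control cells against 12.2 and 14.4 in HT29 LPS and control cells. HOXB7 (34.0 and 32.7) and HOXB8 (30.1 and 31.9) followed it in HCT116, with HOXB7 above HOXA9 in LPS and below it in control cells, and HOXB6 (18.2 and 15.4) came next, ahead of HOXB9 (12.5 and 12.7) and HOXB5 (12.8 and 12.2), whose ranges overlapped. HOXB9 alone took 22.6% and 22.8% of HOX counts in HT29 LPS and control cells, against 6.04% and 6.17% in HCT116 LPS and control cells. HOXA9 took 3.45% and 4.04% in HT29 cells against 19.02% and 21.2% in HCT116 cells.

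**Figure D2:**
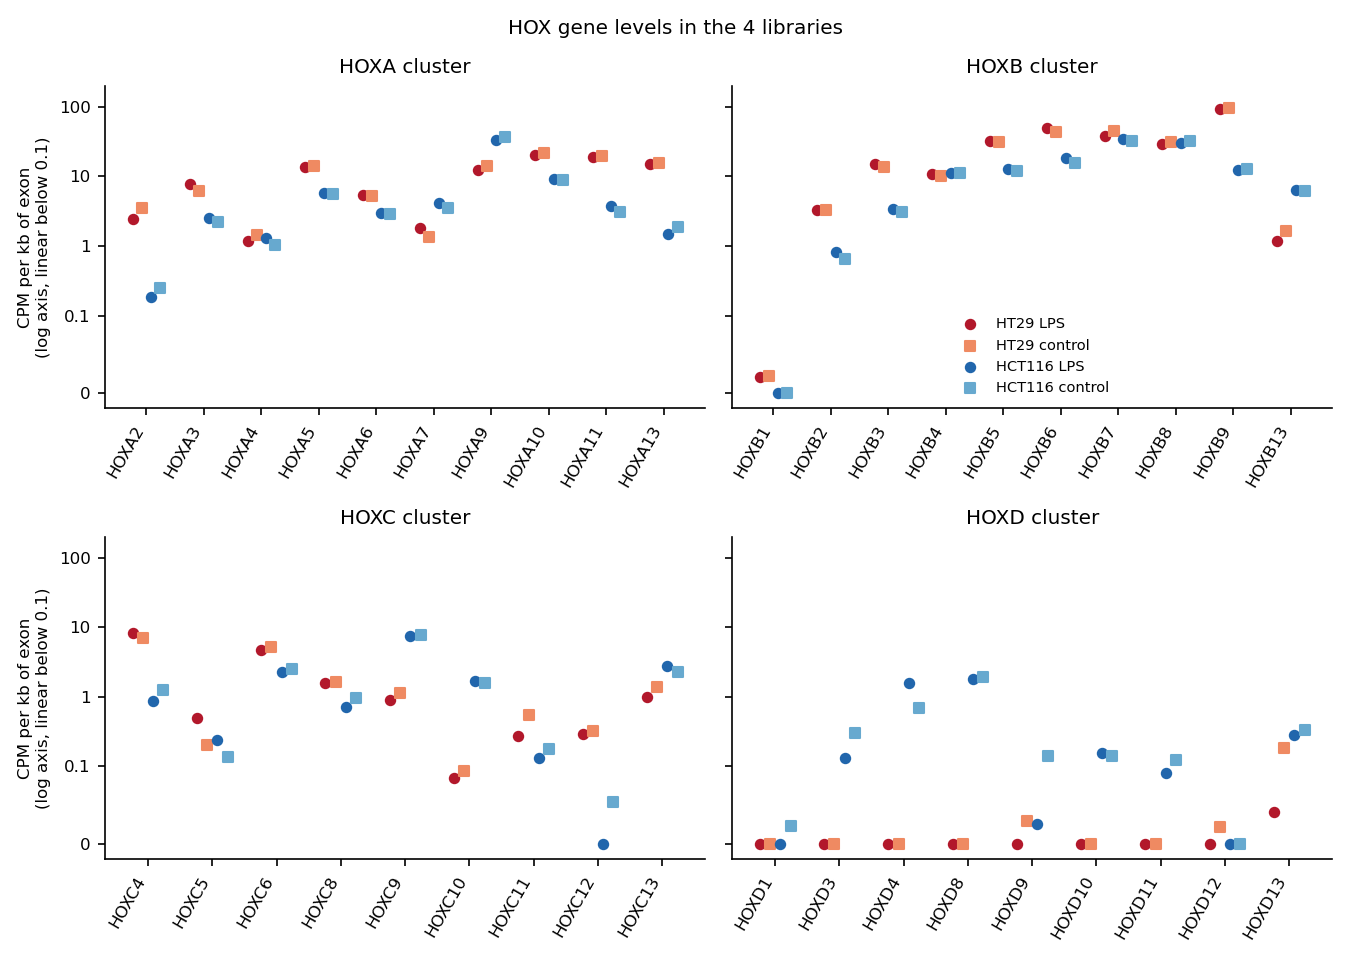
Level of HOX genes in CPM per kb of exon, on a log axis that is linear below 0.1, with 1 point per library and the genes of each cluster ordered by paralog number. In HT29 cells HOXB9 stands highest at 93.99 (LPS) and 94.95 (control), in HCT116 cells HOXA9, at 33.5 (LPS) and 37.3 (control), and HOXB7, at 34.0 (LPS) and 32.7 (control), stand highest, and most HOXD points of HT29 cells lie at 0.

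The lines were compared with edgeR's quasi-likelihood test over all genes that averaged 1 CPM or more, with LPS as a block and Benjamini-Hochberg adjustment. The LPS and the control library of a line stand in for replicates in this test, so its p-values measure only the spread between these libraries. Of the 39 HOX genes 27 passed the filter on low counts, and of these 16 were higher in HT29 and 7 higher in HCT116 at an adjusted p under 0.05, while 4 were not called. Over all 14523 genes tested, 37.8% were higher in HT29 and 38.8% were higher in HCT116, so being called is the rule in this comparison, and the share of HOX genes called, 85.2%, is read against that. By direction, 59.3% of the tested HOX genes were higher in HT29 and 25.9% higher in HCT116. Their median log2 fold change, HT29 over HCT116, was 0.96, against -0.02 over all genes tested. In all 23 called HOX genes the libraries of the 2 lines did not overlap. The share of all genes without overlap was not counted, so this is not read as particular to HOX genes. The calls came from the same libraries, so the lack of overlap lends them no separate support. HOXB4, which was not called, did not overlap either. Of the 27 tested, DESeq2 called 15 higher in HT29 and 7 higher in HCT116, the gene it did not call being HOXC8 (adjusted p = 0.0653). Among the 14 HOX genes that share no exon base with another gene 7 were tested, of which 5 were higher in HT29 and 1 higher in HCT116.

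**Figure D3:**
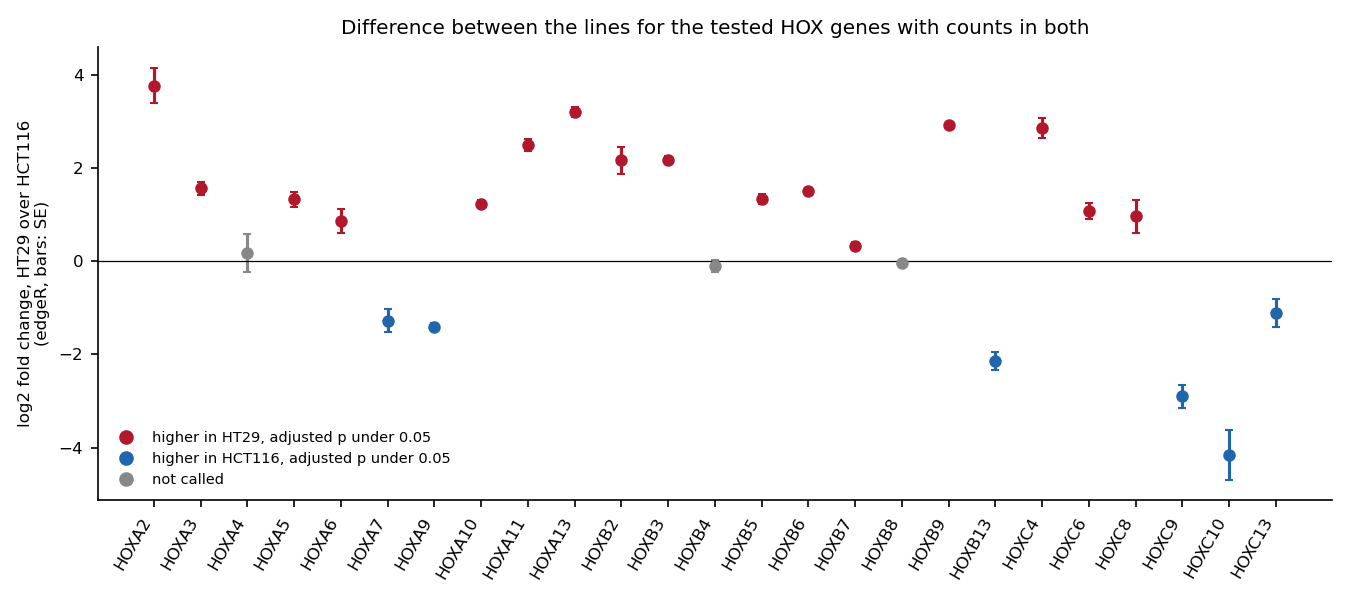
Log2 fold change HT29 over HCT116 of the tested HOX genes with counts in both lines, from edgeR with its standard error as bars, ordered by cluster and paralog number, red and blue for genes higher in HT29 and in HCT116 and grey for genes not called. Values above 0 run to 3.76 (HOXA2) and values below 0 to -4.16 (HOXC10). HOXD8, at 0 in both HT29 libraries, is not drawn.

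In HOXA, 7 of 11 genes were higher in HT29, and these lay at both ends of the cluster, with the genes higher in HCT116, HOXA7 and HOXA9, between them. HOXA13, which patterns the hindgut, the genital tract and the limb ends, had 1513 and 1433 counts in HT29 LPS and control cells and 158 and 213 in HCT116 LPS and control cells. It was 9.08-fold higher in HT29 (log2 fold change 3.19, SE 0.11, adjusted p = 1.63e-16). HOXA11, which with HOXA10 shapes the female reproductive tract, had 1002 and 939 counts in HT29 cells against 211 and 186 in HCT116 cells, 5.59-fold higher in HT29 (2.48, SE 0.13, adjusted p = 1.38e-13). HOXA10 had 1505 and 1446 counts in HT29 cells against 695 and 753 in HCT116 cells, 2.33-fold higher in HT29 (1.22, SE 0.08, adjusted p = 2.02e-11). The difference thus grew along the 5′ end of the cluster, in the order HOXA10, HOXA11, HOXA13.

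Next to HOXA10, HOXA9 went the other way. HOXA9, which acts in blood progenitors and is active in many leukaemias, had 737 and 785 counts in HT29 LPS and control cells and 2103 and 2556 in HCT116 LPS and control cells. It was 2.68-fold higher in HCT116 (log2 fold change -1.41, SE 0.08, adjusted p = 2.65e-13). HOXA7 had 86 and 58 counts in HT29 cells against 204 and 189 in HCT116 cells (-1.28, SE 0.24, adjusted p = 5.13e-05). Both share exon bases with other genes, HOXA9 27.0% of them with HOXA10-AS, MIR196B and a further protein-coding gene, and HOXA7 62.5% with HOXA-AS3. HOXA-AS3 itself was higher in HT29 (log2 fold change 1.52), opposite to HOXA7, while HOXA10-AS was higher in HCT116 (-0.95) as HOXA9 was. HOXA10-AS also overlaps exon bases of HOXA10, which was higher in HT29 (1.22).

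At the anterior end, HOXA2, which sets the identity of the second pharyngeal arch, had 114 and 147 counts in HT29 LPS and control cells and 9 and 13 in HCT116 LPS and control cells. HOXA2 was 13.6-fold higher in HT29 (log2 fold change 3.76, SE 0.38, adjusted p = 1.21e-08), the largest difference in favour of HT29 among the tested HOX genes. HOXA3, needed for thymus and parathyroid in the mouse, had 660 and 475 counts in HT29 cells against 222 and 213 in HCT116 cells (1.56, SE 0.15, adjusted p = 3.08e-09). HOXA5, which in the mouse is needed for lung development, had 473 and 446 against 203 and 218 (1.32, SE 0.15, adjusted p = 1.04e-07). HOXA6 had 140 and 122 counts in HT29 cells against 80 and 84 in HCT116 cells (0.87, SE 0.26, adjusted p = 0.00451).

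HOXA4 was not called between the lines, with 41 and 45 counts in HT29 LPS and control cells and 47 and 40 in HCT116 LPS and control cells (log2 fold change 0.18, SE 0.40, adjusted p = 0.697). Its libraries overlapped between the lines.

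In HOXB, 6 of the 9 tested genes were higher in HT29 and 1, HOXB13, was higher in HCT116. HOXB9, whose loss together with its paralogs impairs the mammary gland in the mouse, had 4826 and 4428 counts in HT29 LPS and control cells and 668 and 743 in HCT116 LPS and control cells. It was 7.50-fold higher in HT29 (log2 fold change 2.91, SE 0.07, adjusted p = 4.16e-19), and it shares no exon base with another gene. HOXB13, best known from the prostate, lies apart from the rest of the cluster. It had 71 and 90 counts in HT29 cells against 397 and 420 in HCT116 cells, 4.44-fold higher in HCT116 (-2.15, SE 0.20, adjusted p = 2.00e-09). The posterior genes of HOXB thus went in opposite directions.

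Towards the anterior end, HOXB3 had 2207 and 1834 counts in HT29 LPS and control cells and 519 and 510 in HCT116 LPS and control cells. HOXB3 was 4.49-fold higher in HT29 (log2 fold change 2.16, SE 0.08, adjusted p = 5.47e-16). HOXB2, which with HOXB1 acts in the hindbrain, had 160 and 146 counts in HT29 cells against 42 and 36 in HCT116 cells (2.16, SE 0.29, adjusted p = 6.90e-07). HOXB1 was nearly silent, with 1 and 1 counts in HT29 cells and 0 and 0 in HCT116 cells.

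The central HOXB genes differed least. HOXB6 had 2609 and 2080 counts in HT29 LPS and control cells and 980 and 908 in HCT116 LPS and control cells (log2 fold change 1.497, SE 0.07, adjusted p = 4.95e-14). HOXB5, which acts in the enteric nervous system, had 1177 and 1039 counts in HT29 cells against 492 and 512 in HCT116 cells (1.33, SE 0.10, adjusted p = 8.59e-11). Both genes stood clearly higher in HT29 in each library. HOXB7 had 1163 and 1242 counts in HT29 cells against 1071 and 1123 in HCT116 cells, 1.25-fold higher in HT29 (0.33, SE 0.09, adjusted p = 0.00201). That small difference lost its call without the HT29 control library (adjusted p = 0.113) and with library size alone (adjusted p = 0.0884).

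HOXB4, known for expanding blood stem cells, had 432 and 364 counts in HT29 LPS and control cells and 471 and 503 in HCT116 LPS and control cells, and was not called (log2 fold change -0.10, SE 0.13, adjusted p = 0.495). HOXB8 had 1387 and 1347 counts in HT29 cells against 1498 and 1735 in HCT116 cells and was not called (-0.04, SE 0.07, adjusted p = 0.590). With library size alone, HOXB8 was called higher in HCT116 (-0.20, adjusted p = 0.0267).

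In HOXC, 6 of the 9 genes were tested and all of these were called. The central genes HOXC4, HOXC6 and HOXC8 were higher in HT29 and the posterior genes HOXC9, HOXC10 and HOXC13 higher in HCT116. HOXC4 had 455 and 355 counts in HT29 LPS and control cells and 50 and 79 in HCT116 LPS and control cells, 7.18-fold higher in HT29 (log2 fold change 2.85, SE 0.21, adjusted p = 5.61e-11). HOXC6 had 326 and 328 counts in HT29 cells against 164 and 195 in HCT116 cells (1.06, SE 0.17, adjusted p = 9.07e-06). HOXC4 and HOXC6 share exon bases with each other and with further genes, 17.5% of HOXC4 and 16.1% of HOXC6. HOXC8 had 76 and 72 counts in HT29 cells against 36 and 52 in HCT116 cells (0.96, SE 0.35, adjusted p = 0.0180), and lost its call without the HCT116 LPS library (adjusted p = 0.108).

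HOXC9, which in the mouse sets the thoracic identity of motor neurons, had 30 and 34 counts in HT29 LPS and control cells and 258 and 292 in HCT116 LPS and control cells. It was 7.52-fold higher in HCT116 (log2 fold change -2.90, SE 0.25, adjusted p = 6.39e-10). HOXC10 had 4 and 4 counts in HT29 cells against 84 and 84 in HCT116 cells, 18.4-fold higher in HCT116 (-4.16, SE 0.53, adjusted p = 3.30e-07). HOXC13, needed for hair and nails, had 46 and 60 counts in HT29 cells against 138 and 123 in HCT116 cells (-1.11, SE 0.30, adjusted p = 0.00214). None of these overlapped between the lines, as held for all called HOX genes. The remaining HOXC genes did not pass the filter. HOXC5 had 16 and 6 counts in HT29 cells against 8 and 5 in HCT116 cells, HOXC11 had 18 and 32 against 9 and 13, and HOXC12 had 19 and 19 against 0 and 4. The posterior genes HOXC11 and HOXC12 thus had more counts in HT29, with log2 ratios of summed counts of 1.38 (counting interval 0.63 to 2.17) and 3.44 (1.97 to 5.39), so the posterior end of HOXC went both ways.

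In HOXD, 6 of 9 genes had no count in either HT29 library, and only HOXD8 passed the filter. HOXD8 had 0 and 0 counts in HT29 LPS and control cells and 98 and 116 in HCT116 LPS and control cells. Against a floor of 3 counts over both HT29 libraries, HOXD8 was 62.4-fold lower in HT29 (edgeR adjusted p = 4.33e-09). The counting interval of its log2 ratio of sums, HT29 over HCT116, ended at -5.65. HOXD4 had 0 and 0 counts in HT29 cells against 37 and 18 in HCT116 cells, 16.0-fold lower by the same floor (interval up to -3.66). HOXD3 had 0 and 0 against 10 and 25, 10.2-fold lower by that floor (interval up to -2.98). HOXD10 and HOXD11 were also at 0 in both HT29 libraries, with 8 and 8 counts and 4 and 6 counts in HCT116 LPS and control cells. HOXD13, the paralog of HOXA13 that patterns the digits, was low in both lines, with 2 and 8 counts in HT29 cells against 14 and 18 in HCT116 cells (log2 ratio of sums -1.48, counting interval -2.67 to -0.43). HOXD1, HOXD9 and HOXD12 had at most 6 counts in any library. At this depth the HOXD genes at 0 were not detectable in HT29, which is not the same as absent.

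Across clusters, genes of the same paralog number shared a direction in some groups and not in others. The tested genes of groups 2, 3, 5 and 6 were all higher in HT29. HOXD3, an anterior gene of group 3 that was not tested, went the other way. It had 0 and 0 counts in HT29 LPS and control cells against 10 and 25 in HCT116 LPS and control cells. In group 13, HOXA13 was higher in HT29 while HOXB13 and HOXC13 were higher in HCT116. In group 9, HOXB9 was higher in HT29 while HOXA9 and HOXC9 were higher in HCT116. In group 10 HOXA10 was higher in HT29 and HOXC10 in HCT116. By position, 4 of 5 tested anterior genes were higher in HT29 and 0 in HCT116, 8 of 13 central genes were higher in HT29 and 2 in HCT116, and 4 of 9 posterior genes were higher in HT29 and 5 in HCT116. The median log2 fold change was 2.16 for the anterior, 0.87 for the central and -1.11 for the posterior genes, beside -0.02 over all genes. These medians weigh each tested gene alike and leave out the untested posterior genes, which went both ways. In summed counts the posterior genes had more in HT29, with 9773 and 9280 in LPS and control cells against 4748 and 5425 in HCT116 LPS and control cells. Their share of HOX counts was 45.7% and 47.8% in HT29 cells against 42.9% and 45.0% in HCT116 cells.

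In both lines the summed HOX RNA of LPS and control cells differed by less than counting error. The log2 ratio LPS over control of all HOX counts was -0.001 in HT29 (-0.03 to 0.03) and 0.004 in HCT116 (-0.03 to 0.04). With 1 library per condition these ratios carry no replicate check and no p-value, and genes were described by a ratio beyond 0.58 on the log2 scale. In HT29, 26 HOX genes averaged 1 CPM or more, of which 1 was above 0.58, beside 3.30% of all genes in that line, and 1 was below -0.58, beside 2.52% of all genes. In HCT116, 27 HOX genes had that level, of which 1 was above 0.58, beside 3.70% of all genes, and 0 were below -0.58, beside 2.52%. The median ratio of the HOX genes was -0.06 in HT29 and 0.06 in HCT116, beside -0.01 and -0.003 over all genes.

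**Figure D4:**
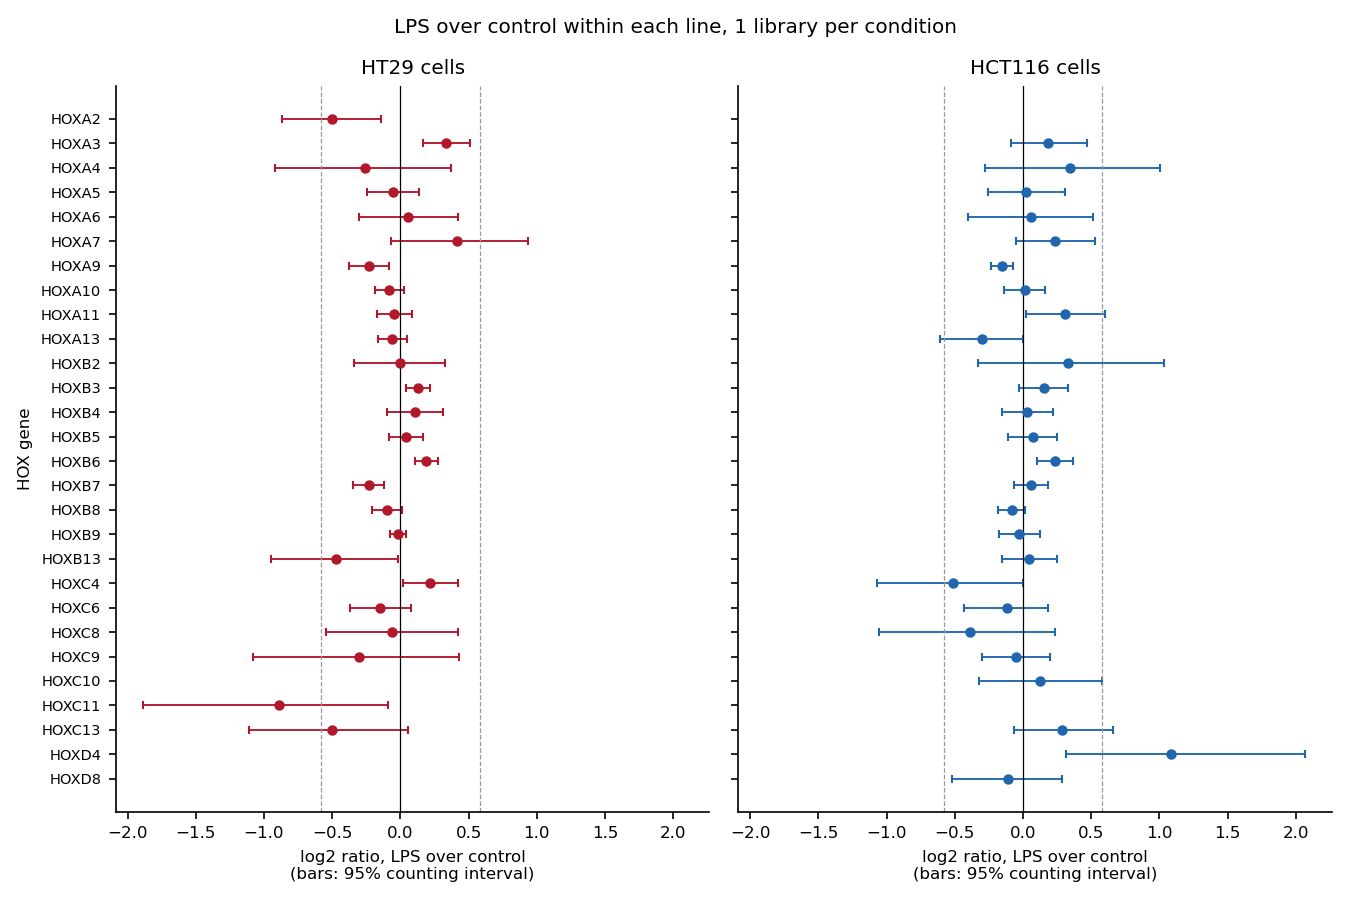
Log2 ratio LPS over control of HOX genes that averaged 1 CPM or more in the line, HT29 cells left and HCT116 cells right, with 95% counting intervals as bars and dashed lines at 0.58 and -0.58. HOXC11 (-0.89) in HT29 cells and HOXD4 (1.08) in HCT116 cells lie beyond the dashed lines.

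HOXC11 was the HOX gene below -0.58 in HT29, with 18 counts in LPS and 32 in control cells (-0.89, -1.89 to -0.09). HOXD4 was the gene above 0.58 in HCT116, with 37 counts in LPS and 18 in control cells (1.08, 0.32 to 2.07), and it had no counts in HT29. Both are genes of low counts, and none of the HOX genes that averaged 5 CPM or more exceeded the threshold.

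The counting interval left out 0 for 10 of 26 HOX genes in HT29, 5 upward and 5 downward, beside 16.0% of all genes upward and 18.5% downward. It did so for 6 of 27 in HCT116, 4 upward and 2 downward, beside 16.9% and 18.1% of all genes. HOXB6 was upward in both lines, with 2609 counts in LPS and 2080 in control HT29 cells (0.19, 0.10 to 0.27) and 980 in LPS and 908 in control HCT116 cells (0.24, 0.11 to 0.37). HOXA9 was downward in both, with 737 counts in LPS and 785 in control HT29 cells (-0.23, -0.38 to -0.08) and 2103 in LPS and 2556 in control HCT116 cells (-0.15, -0.24 to -0.07). These intervals hold no variation between cultures. In HT29, HOXA3 (0.34), HOXB3 (0.13) and HOXC4 (0.22) were also upward, and HOXA2 (-0.50), HOXB7 (-0.23) and HOXB13 (-0.47) downward. In HCT116, HOXA11 (0.31) was also upward, and HOXC4 (-0.52) was downward.

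When the lines stood in for replicates, edgeR's test called 0 of the 27 HOX genes for LPS after Benjamini-Hochberg adjustment, beside 0.234% of all 14523 genes. At an unadjusted p under 0.05 there were 2 HOX genes, HOXB6 (log2 fold change 0.21, SE 0.07, adjusted p = 0.395) and HOXA9 (-0.19, SE 0.08, adjusted p = 0.553). DESeq2 called 0, and gave an adjusted p for 7 of the 27. HOXB6 shares 33.0% of its exon bases with HOXB3 and HOXB-AS3, and the ratios of these in HT29 were 0.13 and 0.36.

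The HOX clusters also hold non-coding genes, several of which are known to act on the cluster or beyond it. Of 63 such genes in the table, 35 had a count and 18 were tested between the lines. Among those tested, 14 were higher in HT29 and 2 higher in HCT116, beside 37.8% and 38.8% of all genes tested. HOTTIP, at the 5′ end of HOXA next to HOXA13, which it is known to keep active, had 342 and 323 counts in HT29 LPS and control cells and 13 and 2 in HCT116 LPS and control cells (log2 fold change 5.65, SE 0.36, adjusted p = 3.86e-12). HOTAIR, which lies in HOXC between HOXC11 and HOXC12 and was first described as acting on HOXD, had 534 and 424 counts in HT29 cells against 11 and 26 in HCT116 cells (4.88, SE 0.26, adjusted p = 1.70e-13). HOTAIRM1, in HOXA, had 307 and 291 counts in HT29 cells against 38 and 63 in HCT116 cells (2.78, SE 0.23, adjusted p = 2.81e-10). All 3 were far higher in HT29.

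HOXA11-AS (448 and 573 counts in HT29 LPS and control cells, 59 and 54 in HCT116 LPS and control cells) had a log2 fold change of 3.36. It overlaps 27.2% of the exon bases of HOXA11. HOXB-AS3 had 1046 and 741 counts in HT29 cells against 415 and 388 in HCT116 cells (1.33). The 2 genes higher in HCT116 were HOXA10-AS, with 69 and 40 counts in HT29 cells against 112 and 124 in HCT116 cells (-0.95, adjusted p = 0.00717), and HOXC-AS1, with 12 and 7 against 39 and 25 (-1.57, adjusted p = 0.0153), beside HOXA9 and HOXC9, which were higher in HCT116 too. DESeq2 did not call HOXC-AS1 (adjusted p = 0.0533). HOXA10-AS also overlaps exon bases of HOXA10, which went the other way and was higher in HT29. The sources used here do not say whether counting used strand, and reads of a HOX gene and of an antisense gene over it cannot be told apart.

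**Figure D5:**
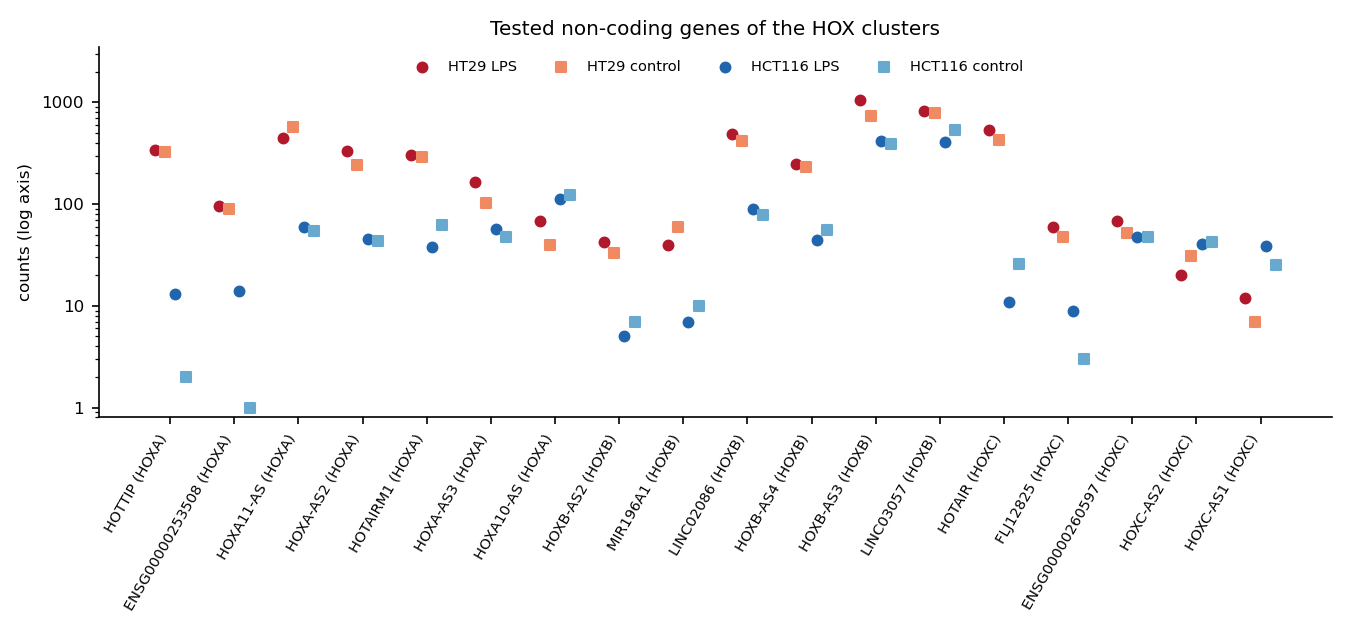
Counts of the 18 tested non-coding genes of the HOX clusters on a log axis, 1 point per library, ordered by cluster and by fold change. HOTTIP has 342 and 323 counts in HT29 LPS and control cells against 13 and 2 in HCT116 LPS and control cells, while HOXA10-AS and HOXC-AS1 are higher in HCT116.

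Genes that work with HOX proteins or act on the clusters were counted the same way. Each count is read against all genes tested, of which 37.8% were higher in HT29 and 38.8% higher in HCT116. Of 6 tested TALE genes, the PBX, MEIS and PKNOX cofactors that bind DNA beside HOX proteins, 3 were higher in HT29 and 3 in HCT116. MEIS3 had 32 and 36 counts in HT29 LPS and control cells and 1479 and 1539 in HCT116 LPS and control cells (log2 fold change -5.27), PBX4 had 50 and 42 against 225 and 182 (-1.95), and MEIS2 had 807 and 693 against 223 and 253 (1.85). The set of cofactors beside the HOX genes thus differed between the lines in both directions, as all genes tested did.

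CDX2, the ParaHox factor that sets intestinal identity, had 39 and 18 counts in HT29 LPS and control cells and 572 and 474 in HCT116 LPS and control cells (log2 fold change -4.05, SE 0.22, adjusted p = 2.68e-13). CDX1 had 17 and 3 counts in HT29 cells and 0 and 0 in HCT116 cells, and did not pass the filter. CDX2 was thus higher in the line with less HOX RNA in total, which is a description of 2 lines. PDX1 had 161 and 190 counts in HT29 cells against 54 and 37 in HCT116 cells (2.14).

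Of the 11 genes of polycomb complex PRC2, which places the repressive mark on histone H3, 5 were higher in HT29 and 4 in HCT116. EZH2, its catalytic subunit, had 3025 and 2433 counts in HT29 LPS and control cells and 1505 and 1762 in HCT116 LPS and control cells (log2 fold change 0.93, adjusted p = 2.54e-10), and SUZ12 (1.19) and PHF19 (1.12) were also higher in HT29, while JARID2 (-1.18) was higher in HCT116. Of 18 tested genes of PRC1, which compacts the silenced regions, 2 were higher in HT29 and 12 in HCT116, led by PHC1, with 20 and 9 counts in HT29 cells against 655 and 548 in HCT116 cells (-5.21), CBX6 (-3.07), PCGF5 (-2.78) and CBX7 (-1.95). RING1 was listed at 0 in all 4 libraries, which is not read as lack of expression, since the counting of reads with several alignments is not stated. Of 17 trithorax and demethylase genes 9 were higher in HT29 and 3 in HCT116, among them MLLT3 (3.13) and KMT2C (1.36) in HT29 and ASH2L (-1.58) in HCT116.

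Of 9 tested genes of retinoic acid signalling, 7 were higher in HT29 and 2 in HCT116. ALDH1A1, which makes retinoic acid, had 18456 and 17957 counts in HT29 LPS and control cells and 0 and 0 in HCT116 LPS and control cells. ALDH1A3, of the same function, had 500 and 481 counts in HT29 cells against 6580 and 7261 in HCT116 cells (log2 fold change -3.62). CYP26B1, which degrades retinoic acid, had 17 and 0 counts in HT29 cells against 834 and 919 in HCT116 cells (-6.50). These enzymes were named for their large fold changes, so the size of their differences is not read as a separate result. DHRS3, of the same list, differed less, with 1406 and 1329 counts in HT29 cells against 1200 and 1271 in HCT116 cells (0.34). ALDH1A2, CYP26A1 and CYP26C1 had few counts and did not pass the filter. Whether any of these genes had a part in the HOX differences was not tested, since 2 lines that differ in 5495 and 5633 genes in the 2 directions cannot tell them apart.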

How the data were processed

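RNA of HT29 and HCT116 cells was extracted with a column kit and libraries were made with a NEBNext Ultra RNA kit. Per the labels, the authors used cutadapt 1.9, Trimmomatic 0.39, HISAT2 2.1.0 and featureCounts 2.0.1 with hg38, and deposited 1 table of whole-number counts per gene and exon lengths. The sources used here do not state strand and multi-mapping settings or the annotation release. The deposited lengths of all 39 HOX genes equalled those of GENCODE 44, from which symbols, positions and exon overlaps were taken.

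Counts were scaled by TMM and tested with edgeR 4.0.16 (R 4.3.3) over genes averaging 1 CPM or more, with an adjusted p under 0.05 as the threshold. Within a line, ratios used a prior count of 2 and genes averaging 1 CPM or more there. The model was tested on simulated data. DESeq2 1.42.0, other scalings, filters, prior counts and left-out libraries were alternatives, and leaving out each library was added after seeing the data. All HOX genes could be named, but some genes and sequences are not reported here, though the counts and sums include them. Other lists gave up to 4 genes of largest fold change and a few fixed or added names. Members and lists were chosen with earlier results of these data known. The RefSeq promoter table held 20 of the 39 genes, too few for a count of promoter motifs.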

Additional observations from a re-analysis of the deposited data

Results flagged for a closer look

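HOXC4 had LPS over control ratios of opposite sign in the 2 lines, 0.22 on the log2 scale in HT29 cells (455 counts in LPS and 355 in control cells, counting interval 0.02 to 0.42) and -0.52 in HCT116 cells (50 in LPS and 79 in control cells, -1.07 to -0.003). With 1 library per condition, that difference was not tested. Among the HOX genes averaging 1 CPM or more in both lines, it was the only one with opposite signs and counting intervals without 0 in both. The share of all genes that meet this rule was not counted, so the pattern is not read as particular to HOXC4. HOXC4 shares 17.5% of its exon bases with other genes, HOXC6 among them.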

How the results depend on the processing

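The counts of HOX genes called between the lines depended on which genes were admitted. With genes that share exon bases left out, 5 were higher in HT29 and 1 in HCT116, and with a minimum mean of 5 CPM 4 were higher in HCT116. For LPS, HT29 had 2 genes above 0.58 and 4 below -0.58, and HCT116 had 2 and 3, without a filter on low counts. With a minimum of 5 CPM HT29 had 0 above and 0 below and HCT116 had 0 above, and with a threshold of 1 HT29 had 0 and 0. With library size alone the log2 ratios HT29 over HCT116 of summed counts were 0.59 (LPS) and 0.55 (control) for HOXA, 1.12 and 1.11 for HOXB, and 0.26 in control cells for HOXC. With exon-sharing genes left out they were 1.53 and 1.69 for HOXA, 1.10 and 1.15 for HOXB, 1.39 and 1.16 for HOXC, and -4.64 and -1.74 for HOXD. The LPS ratios were then -0.15 (HOXA), -0.071 (HOXB) and -0.26 (HOXC) in HT29, and -0.018 (HOXB), -0.49 (HOXC) and 0.44 (HOXD) in HCT116. Fewer genes entered these sums, in HOXA only HOXA2 and HOXA5. In HCT116 HOXA was at 0.004. The HOXB ratios in both lines and the HOXA and HOXD ratios in HCT116 changed sign by this, from values near 0 whose counting intervals held 0. Library size alone leaves out the TMM factors, which were 0.953 and 0.944 in HT29 LPS and control cells and 1.05 and 1.06 in HCT116 LPS and control cells. Leaving them out lowers the log2 ratio HT29 over HCT116 of every cluster by the same amount within a condition. No HOX gene called between the lines changed sign under an alternative. The line test had LPS and the LPS test the line as a block. No paired analysis by replicate was possible because the groups share only 1 replicate number. HOXD counts in HT29, between 0 and 8 per gene, limit any ratio there.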
